A study of Homo sapiens with 4 samples.

Results

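The G1 cyclins, their cyclin-dependent kinases (CDKs) and the inhibitors of those kinases were followed in KYSE150 cells, an established line from an esophageal squamous cell carcinoma, after an siRNA against CEBPG. The set was defined by gene name and comprised CCND1, CCND2, CCND3, CDK4, CDK6, CDK2, CCNE1, CCNE2, CDKN1A and CDKN1B. These 10 genes were all listed among the 17825 rows of the table, and 10 of 10 passed the filter on low counts that left 14207 genes for testing. RNA-seq was available from 2 libraries of cells transfected with an siRNA duplex numbered 1 that targets CEBPG, which encodes the basic leucine zipper factor C/EBP gamma, and from 2 libraries of cells labelled as negative control. Both groups were KYSE150 cells, and 1 line and 1 duplex were used, so line-specific or duplex-specific responses cannot be told apart from those to CEBPG loss. The sources used here state neither the time after transfection nor the dose or sequence of the siRNA. Since the labels do not tell whether replicate libraries were grown as separate cultures, a p-value covers only library-to-library spread, which may be technical.

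Entry into S phase is controlled by cyclin-dependent kinases, which are inactive until a cyclin binds them. D-type cyclins are made in response to growth factors and pair with CDK4 or CDK6, and E-type cyclins pair with CDK2. The active kinases phosphorylate the retinoblastoma protein and its relatives, which releases E2F transcription factors. The Cip/Kip proteins p21 and p27 bind and inhibit CDK2 complexes and also take part in assembling cyclin D complexes. Cyclin D1 is often amplified or overexpressed in esophageal squamous carcinoma.

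Library totals ranged from 15432762 to 15489075 counts in siRNA cells and from 15515901 to 15536501 in control cells. The siRNA target itself had 214 and 204 counts in siRNA libraries, against 792 and 751 in control libraries, a change of -1.98 in log2 units (SE 0.077, edgeR adjusted p = 1.82e-11). All 11 squamous epithelial markers on the list used were expressed, with summed levels of 2640 to 2670 CPM (counts scaled to the library total) in siRNA cells and 2440 in each control library. Of these markers 5 rose, by log2 fold changes of 0.11 to 0.59, and 3 fell, namely KRT14 at -1.09, KRT17 at -0.99 and SFN at -0.89 (each at an edgeR adjusted p under 0.05), and the part of this in the results was not tested. Of 6 fibroblast, 5 endothelial, 7 immune and 6 retinal markers, 3, 2, 2 and 1 were listed, and PECAM1, PTPRC, COL1A2 and COL3A1 were not among them. Listed were COL1A1, LUM and PDGFRB (fibroblast), VWF and CDH5 (endothelial), CD3E and CD14 (immune) and OPN1SW (retinal). COL1A1 had 191 and 153 counts in siRNA libraries, against 194 and 162 in control libraries. The summed fibroblast markers stood at 11 to 13 CPM in siRNA cells and 11.6 to 13.9 in control cells. The summed endothelial markers stood at 13.6 to 13.7 CPM in siRNA cells and 7.47 to 7.48 in control cells, of which the cadherin gene CDH5 gave most. CDH5 rose by a log2 fold change of 0.78 (edgeR adjusted p = 4.49e-05), and VWF was not called (0.61, edgeR adjusted p = 0.272). The part of this in the results was not tested. These are bulk samples, in which fewer cells of a type and less RNA per cell cannot be told apart.

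The transcripts were read for the 7-base word GGCTATT, which earlier results of these data had tied to genes that were lower in siRNA cells. The word was searched on the transcript strand of 1 principal GENCODE transcript per gene, and 1605 of 12562 listed coding genes (12.8%) hold it anywhere in the transcript. Among the 10 genes it is present in CCND2, CDK2 and CDK6, once in each 3' UTR, and it is also in the 3' UTR of CEBPG. The sites are given in GRCh38 with the word in capitals and 11 flanking bases on each side, since CEBPG and these transcripts have the word in common. Exon 2 of CEBPG holds it at chr19:33379810-33379816 on the plus strand, exon 5 of CCND2 at chr12:4301568-4301574 on the plus strand, exon 7 of CDK2 at chr12:55971697-55971703 on the plus strand, and exon 8 of CDK6 at chr7:92604995-92605001 on the minus strand.
CEBPG: gacccattggaGGCTATTttctgggatca
CCND2: aatcagaacagGGCTATTtgaagaattat
CDK2: gcttggccttgGGCTATTtggactcaggt
CDK6: attactctcctGGCTATTttcttttttac
The capitals mark the word, and the flanking bases were not compared further. The word came from earlier results of these same data, so its presence in members that fell is no independent evidence. A link to the changes was not tested. Genes with the word were found in both directions. CDK2 and CCND2 fell and CDK6 rose, while CCND1, which lacks it in a transcript of 4307 bases, had the largest fall. The transcripts of CDK6, CCND2 and CDK2 are 11612, 6480 and 2296 bases long, against a median of 3122 over the genes searched. CGGAGAA, a word that earlier results had tied to genes that were higher, is in 15.4% of the transcripts. It occurs in the coding sequence of CCND2, which fell, and the 3' UTR of CDK6, which rose. Shifted forms of these words were searched too. GCTATTA, in 11.8% of transcripts, is in the 3' UTRs of CDK2 and CCNE2, which both fell. TCGGAGA, a shifted form of the word tied to higher genes, is in 11.3% and in the coding sequence of CDK2, which fell.

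Most of these transcripts were lower in siRNA cells. Of the 10 genes, 8 fell, 1 rose and 1 did not pass the test at an edgeR adjusted p under 0.05. Among the 14207 genes tested, 28.8% were lower and 25.5% higher, so lower calls were common in these libraries. These are 3617 higher and 4098 lower genes, whereas with total counts alone 4939 were higher and 3079 lower, with upper-quartile factors 4525 and 3396, and in limma on RPKM 4447 and 2847. At least 2-fold falls were found for 4 of the 10 genes, namely CCND1, CCND2, CCND3 and CDK2, against 2.86% of the genes tested. For CCND2 and CCND3 this depends on the scaling. Their log2 fold changes were -0.9991 and -0.9924 with upper-quartile factors, and -0.9698 and -0.9632 with total counts alone. In limma on RPKM they were -0.9397 and -0.8755. CCND1 and CDK2 fell more than 2-fold in each alternative. The members were chosen with earlier results of these data known, so their counts are not independent of the data. The replicates were close, with log2 differences between libraries of a group of 0.000569 to 0.144 over these genes, and the siRNA and control values of none of the 10 overlapped. Over the genes tested, the siRNA values lay below both control values in 38.2% and above both in 38% of cases. The counts over all genes shift when 1 library is left out, to 1879 higher and 2689 lower without Control replicate 1, 1737 and 2572 without Control replicate 2, 2345 and 2952 without siCEBPG replicate 1, and 2342 and 3049 without siCEBPG replicate 2, while in each case 8 of the 10 genes were lower and 1 was higher.

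**Figure D1:**
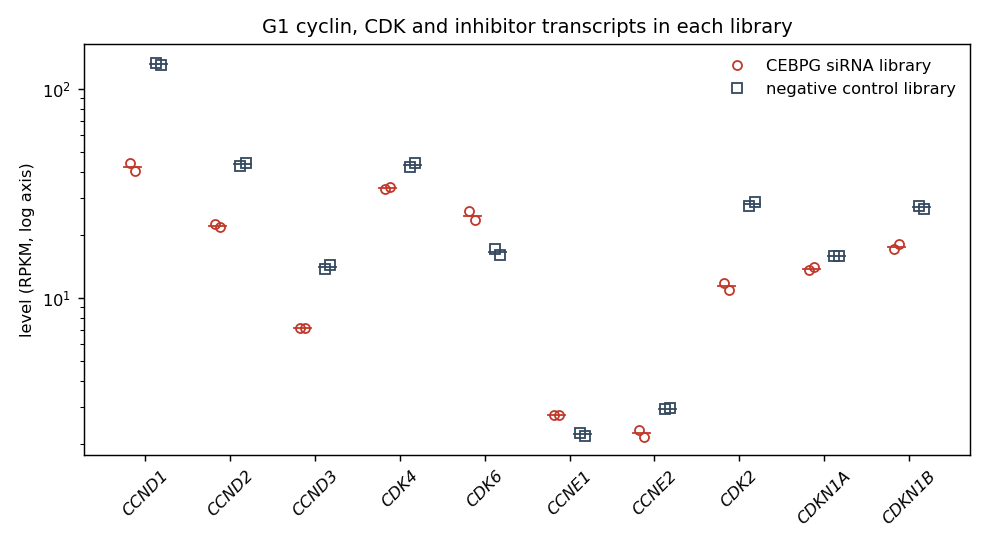
Level of each transcript in RPKM (reads per kilobase of transcript and library size, log axis) in the 2 CEBPG siRNA libraries (circles, left) and the 2 negative control libraries (squares, right), with a line at each group mean. CCND1 stands highest in control cells, at 133.04 and 130.34 RPKM, and CCNE1 and CCNE2 stand lowest in both groups.

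D-type cyclins, the growth factor-responsive partners of CDK4 and CDK6, fell together. CCND1, which encodes cyclin D1, spans chr11:69641087-69654474 (GRCh38, plus strand). It had 3270 and 3033 counts in siRNA libraries, against 9989 and 9773 in control libraries. Per gene length these were 43.84 and 40.51 RPKM in siRNA cells and 133.04 and 130.34 RPKM in control cells. The fall was 3.34-fold, or -1.74 in log2 units (SE 0.041, edgeR adjusted p = 1.3e-13), and 0.436% of the genes tested had a lower change. The authors' deposited table gives -1.75 with a standard error of 0.0498. LTO1, listed as ORAOV1, overlaps CCND1 by 253 exonic bases on the other strand and had 475 and 457 counts in siRNA libraries, against 464 and 439 in control libraries.

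CCND2, the gene of cyclin D2, had 22.43 and 21.83 RPKM in siRNA libraries, against 42.87 and 43.86 RPKM in control libraries. Both siRNA values were below both control values, with 2479 and 2422 counts in siRNA libraries, against 4769 and 4873 in control libraries. Its log2 fold change was -1.07 (SE 0.039, edgeR adjusted p = 1.1e-11). AC008012.1, a gene on the same strand that was not in the table, shares 464 exonic bases with CCND2, so reads there could not be resolved even with strand. An antisense gene, CCND2-AS1, shares 126 bases of exon with it and had 15 and 14 counts in siRNA libraries, against 20 and 17 in control libraries. Whether counting used strand is not stated, and these counts are small beside those of CCND2.

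CCND3, the gene of cyclin D3, had 588 and 590 counts in siRNA libraries, against 1130 and 1177 in control libraries. It was the least abundant D-type cyclin per length, at 7.18 RPKM in each siRNA library and 13.72 and 14.3 RPKM in the control libraries. Its log2 fold change was -1.06 (SE 0.057, edgeR adjusted p = 6.89e-10), and the groups did not overlap. The 95% interval of the log2 fold change was -1.18 to -0.94 for CCND3, -1.15 to -0.99 for CCND2 and -1.83 to -1.65 for CCND1. The interval of CCND1 lies below those of the other D-type cyclins. Whether the changes differ was not tested.

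Summed over the D-type cyclins, the level was 73.45 and 69.52 RPKM in siRNA libraries, against 189.63 and 188.5 RPKM in control libraries. CCND1 made up 59.0% ± 1.0 of this sum in siRNA cells and 69.7% ± 0.71 in control cells (SD, n = 2 each). CCND2 made up 31.0% ± 0.61 in siRNA cells and 22.9% ± 0.47 in control cells (SD, n = 2 each). Cyclin D1 remained the leading D-type transcript in both groups, and its share in siRNA cells minus that in control cells was -10.7 percentage points. With 2 libraries against 2, the smallest two-sided p that an exact permutation test can give is 0.333, so shares and ratios within a library are given as values with no test.

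The partner kinases moved in opposite directions. CDK4 had 33.26 and 33.79 RPKM in siRNA libraries, against 42.36 and 43.84 RPKM in control libraries. Counts were 1627 and 1659 in siRNA libraries and 2086 and 2156 in control libraries, and the log2 fold change was -0.46 (SE 0.045, edgeR adjusted p = 4.77e-07). CDK4 shares up to 891 exonic bases with TSPAN31 on the other strand, and TSPAN31 had 272 and 270 counts in siRNA libraries, against 200 and 182 in control libraries. Reads of the pair may not be separable without strand. TSPAN31 had more counts in siRNA cells, the opposite of CDK4.

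CDK6 was the member that rose. It had 25.95 and 23.4 RPKM in siRNA libraries, against 17.06 and 16.07 RPKM in control libraries. Counts were 4913 and 4446 in siRNA libraries and 3251 and 3058 in control libraries, so the lowest siRNA library stood above the highest control library. The log2 fold change was 0.48 (SE 0.049, edgeR adjusted p = 8.36e-07), and 84.6% of the genes tested had a lower change. Its replicate gap in siRNA cells, 0.144 on the log2 scale, was the widest of the 10 genes.

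As CDK4 fell and CDK6 rose, their sum per length stayed close between groups, at 59.21 and 57.19 RPKM in siRNA libraries and 59.42 and 59.91 RPKM in control libraries. CDK6 made up 42.4% ± 2.1 of that sum in siRNA cells and 27.8% ± 1.3 in control cells (SD, n = 2 each). The log2 ratio of CDK6 to CDK4 was -0.36 and -0.53 in siRNA libraries, against -1.31 and -1.45 in control libraries. CDK4 thus exceeded CDK6 in each of the 4 libraries, by less in siRNA cells. The mean sum was 58.2 ± 1.4 RPKM in siRNA cells and 59.7 ± 0.35 RPKM in control cells (SD, n = 2 each).

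**Figure D2:**
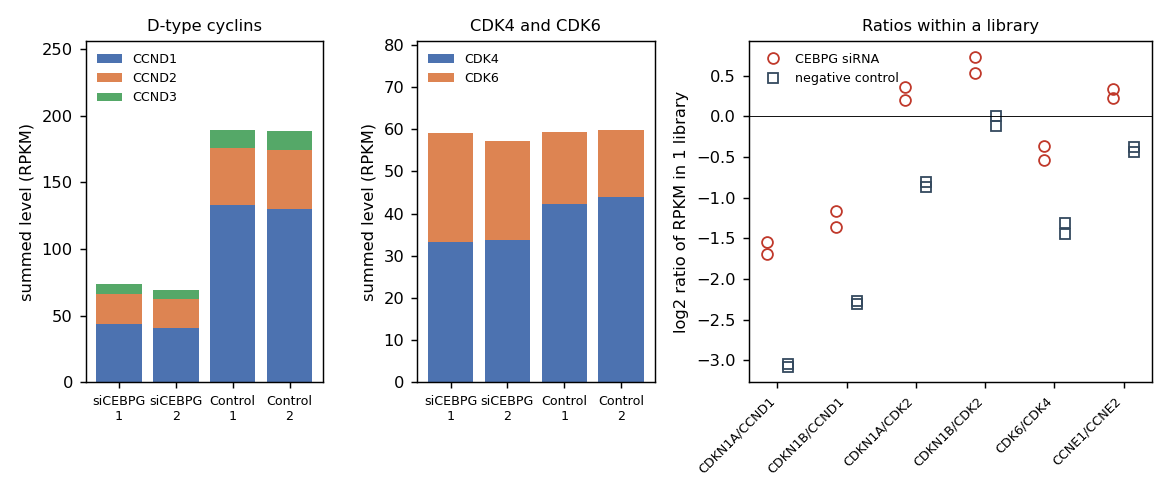
Left and middle, deposited RPKM of the D-type cyclins and of CDK4 and CDK6 stacked per library, with the CEBPG siRNA libraries left of the control libraries. Right, log2 ratios of RPKM between pairs of genes within each library (circles, siRNA; squares, control). The D-type sum is 73.45 and 69.52 RPKM in siRNA libraries against 189.63 and 188.5 RPKM in control libraries. The sums of CDK4 and CDK6 lie between 57.19 and 59.91 RPKM. Each ratio is higher in siRNA cells, since the gene with the higher log2 fold change is on top.

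Sequence before an annotated start is shown for this pair, whose members changed in opposite directions. A link between sequence and change was not tested. RefSeq promoter windows (GRCh38.p14) were found for 6 of the 10 genes, in 9 windows, and not for CCND1, CCND2, CDK2 and CCNE2. Each window was read over the 250 bases before the start, on both strands, for CACGTG (the E-box that MYC binds), TGACGT (the core of a cyclic AMP response element), TGATGNAA (a composite site for C/EBP and ATF factors), TTGCGCAA (a palindromic C/EBP site) and GGGCGG (an Sp1 box). The sequences run 5′ to 3′ on the minus strand, with matches in capitals. CDK4 covers chr12:57752311-57752560 and CDK6 covers chr7:92833960-92834209, which is 1 of its 2 windows. Both windows shown lie within the annotated span of their gene. The CDK6 gene spans chr7:92604921-92836594 on the minus strand. Its other window, chr7:92836574-92836823, lies at the start of that span and is not shown.
CDK4: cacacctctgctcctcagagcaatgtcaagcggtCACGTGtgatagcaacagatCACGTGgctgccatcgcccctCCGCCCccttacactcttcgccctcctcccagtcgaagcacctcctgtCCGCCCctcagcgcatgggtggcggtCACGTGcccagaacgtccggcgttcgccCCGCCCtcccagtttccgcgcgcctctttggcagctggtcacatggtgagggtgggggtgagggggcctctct
CDK6: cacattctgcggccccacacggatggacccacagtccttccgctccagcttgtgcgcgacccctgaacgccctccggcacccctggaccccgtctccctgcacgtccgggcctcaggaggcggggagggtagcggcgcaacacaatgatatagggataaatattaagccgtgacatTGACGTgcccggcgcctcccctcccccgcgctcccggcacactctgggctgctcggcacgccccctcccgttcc
The window of CDK4 holds 3 CACGTG words, at 216, 196 and 101 bases before the start, and 3 Sp1 boxes. CACGTG is in 6.34% of 35116 such windows and GGGCGG in 42.6%. The CDK6 window shown holds 1 TGACGT, 74 bases before its start, a word in 7.1% of windows. The other CDK6 window has 3 Sp1 boxes and no TGACGT. TGATGNAA, in 3.14% of windows, and TTGCGCAA, in 0.131%, were in none of the 9 windows. These are matches of letters and do not show binding.

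Of CDK2 and its E-type cyclins, which act at the boundary to S phase, CDK2 and CCNE2 fell and CCNE1 was not called. CDK2 had 11.79 and 10.85 RPKM in siRNA libraries, against 27.51 and 28.63 RPKM in control libraries. Its counts were 709 and 655 in siRNA libraries and 1665 and 1731 in control libraries. Its change of -1.41 in log2 units (SE 0.055, edgeR adjusted p = 2.03e-11) was the second largest fall of the set, and 1.01% of the genes tested had a lower change. AC025162.1, which was not in the table, overlaps CDK2 by 287 exonic bases on the other strand. PMEL overlaps it by 66 exonic bases on the other strand and had 26 and 19 counts in siRNA libraries, against 24 and 26 in control libraries.

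CCNE1, which encodes cyclin E1, was among the least abundant transcripts, with 109 counts in each siRNA library, against 90 and 87 in control libraries. Per length it stood at 2.75 and 2.74 RPKM in siRNA cells and 2.25 and 2.18 RPKM in control cells. The siRNA values were above both control values, but the change of 0.21 in log2 units (SE 0.14) did not pass the test (edgeR adjusted p = 0.23). Its 95% interval, -0.09 to 0.51, includes no change. In limma on log2(RPKM + 1) it passed, at an adjusted p of 0.0374, with adjusted p-values of 0.0374 to 0.583 over the alternatives.

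CCNE2, the gene of cyclin E2, had 159 and 147 counts in siRNA libraries, against 200 and 202 in control libraries. The log2 fold change was -0.49 (SE 0.11, edgeR adjusted p = 0.0015), with 2.34 and 2.16 RPKM in siRNA cells and 2.92 and 2.96 RPKM in control cells. Its exons share up to 1628 bases with INTS8 on the other strand, an Integrator subunit gene with 643 and 653 counts in siRNA libraries, against 627 and 578 in control libraries. Without strand, reads of CCNE2 and INTS8 cannot be told apart in that stretch, so the level of CCNE2 is uncertain. The log2 ratio of CCNE1 to CCNE2 was 0.23 and 0.34 in siRNA libraries, against -0.38 and -0.44 in control libraries. This ratio rests on the uncertain level of CCNE2, so no order of the E-type cyclins is drawn from it.

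The inhibitor genes also fell, with smaller log2 fold changes than the D-type cyclins, a difference that was not tested. CDKN1B, the gene of p27, had 742 and 786 counts in siRNA libraries, against 1205 and 1153 in control libraries. It stood at 17.09 and 18.04 RPKM in siRNA cells and 27.58 and 26.42 RPKM in control cells. The log2 fold change was -0.72 (SE 0.056, edgeR adjusted p = 4.21e-08), and 6.22% of the genes tested had a lower change.

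CDKN1A, the gene of p21, had 625 and 645 counts in siRNA libraries, against 731 and 730 in control libraries. Levels were 13.56 and 13.94 RPKM in siRNA cells and 15.75 RPKM in each control library, a small difference next to replicates that agreed closely. Its change of -0.29 in log2 units (SE 0.060, edgeR adjusted p = 0.000713) was the smallest called change of the set. It held in each alternative, with values from -0.32 to -0.18, and 23% of the genes tested had a lower change.

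Relative to CCND1 and to CDK2, the inhibitor transcripts stood higher within siRNA libraries, a comparison that needs no scaling between libraries. CCND1 and CDK2 had the largest falls of the set, so these ratios follow from the log2 fold changes. Against the other kinases, the same holds only for CDKN1A relative to CDK4. The log2 fold change of CDK4, -0.46, lay between those of CDKN1B, -0.72, and CDKN1A, -0.29, and CDK6 rose. The log2 ratio of CDKN1A to CCND1 was -1.69 and -1.54 in siRNA libraries, against -3.08 and -3.05 in control libraries. The log2 ratio of CDKN1B to CCND1 was -1.36 and -1.17 in siRNA libraries, against -2.27 and -2.30 in control libraries. CCND1 thus outnumbered both inhibitor transcripts per length in the 4 libraries, by a smaller margin in siRNA cells. For CDK2, the log2 ratio of CDKN1A to CDK2 was 0.20 and 0.36 in siRNA libraries, against -0.80 and -0.86 in control libraries. By deposited RPKM, CDKN1A was therefore above CDK2 in siRNA cells and below it in control cells. This crossing rests on the gene lengths behind the RPKM, which are not given. In counts CDK2 stayed above CDKN1A in siRNA libraries, at 709 and 655 against 625 and 645. Their principal transcripts, at 2296 bases for CDK2 and 2267 for CDKN1A, are of similar length, so no crossing is drawn from this ratio. The log2 ratio of CDKN1B to CDK2 was 0.54 and 0.73 in siRNA libraries, against 0.0037 and -0.12 in control libraries.

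Ordered by level per length, the control cells had CCND1 first at 132 ± 1.9 RPKM, then CCND2 at 43.4 ± 0.70 and CDK4 at 43.1 ± 1.0 RPKM (SD, n = 2 each), which did not differ beyond their spread. CDK2 at 28.1 ± 0.79 and CDKN1B at 27.0 ± 0.82 RPKM followed in control cells, again with overlapping spreads (SD, n = 2 each). In siRNA cells CCND1 was still first, at 42.2 ± 2.4 RPKM, followed by CDK4 at 33.5 ± 0.37, CDK6 at 24.7 ± 1.8 and CCND2 at 22.1 ± 0.42 RPKM (SD, n = 2 each). CDK6 had the third highest level of the 10 genes in siRNA cells, and in control cells, at 16.6 ± 0.70 RPKM (SD, n = 2), it came after 5 others. CCNE1 and CCNE2 were at the end of the order in both groups. This order is that of the deposited RPKM, whose gene lengths are not given, and other lengths can change it. Per base of the principal transcripts, 4307 for CCND1 and 2076 for CDK4, the counts of CDK4 come before those of CCND1 in siRNA cells.

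**Figure D3:**
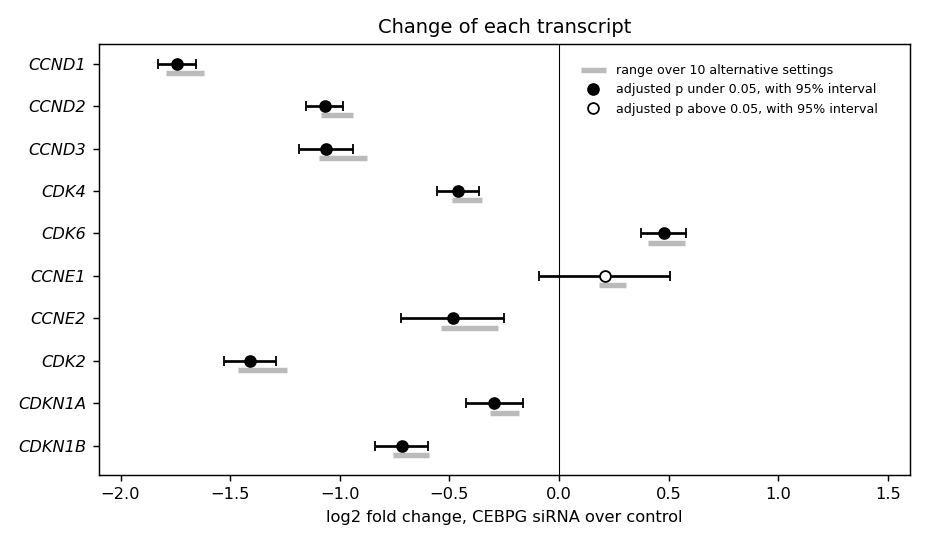
Log2 fold change of each gene, CEBPG siRNA over control, from edgeR with its 95% interval (filled, adjusted p under 0.05; open, above), and in grey the range over 10 alternative settings. CCND1 at -1.74 and CDK2 at -1.41 lie farthest left, CDK6 at 0.48 is the one filled point right of 0, and no grey range crosses 0.

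Profiles most like that of CCND1 were sought among the 10675 other genes that averaged at least 5 CPM, as the distance between log2 levels over the 4 libraries after each gene's mean was removed. The nearest were LRRC58 (distance 0.0261), COQ2, an enzyme gene of coenzyme Q synthesis (0.0357), and BZW1 (0.0369). Their log2 fold changes were -1.74 for LRRC58, -1.76 for COQ2 and -1.75 for BZW1. The likeness rests on 4 libraries in 2 groups, so it says little beyond a similar size of change.

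Genes that act on or through the G1 kinases were read against the shares of all genes tested, of which 25.5% were higher and 28.8% lower. Among 12 tested RB and E2F genes, 3 rose and 4 fell, close to those shares, with a median log2 fold change of 0.09, against 0.005 over all genes tested. TFDP1, the gene of DP1, a DNA-binding partner of most E2F proteins, fell to 995 and 976 counts in siRNA libraries, against 2491 and 2490 in control libraries (log2 fold change -1.43, SE 0.046, edgeR adjusted p = 2.69e-12). E2F7, a repressive E2F, fell by 1.17 on the log2 scale. RBL2, which encodes the RB relative p130, rose to 172 ± 1.1 CPM in siRNA cells, against 98.9 ± 0.43 CPM in control cells (SD, n = 2 each; log2 fold change 0.79, edgeR adjusted p = 7.33e-10), and E2F2 rose by a log2 fold change of 0.38. RB1, named here after its values were seen, had 1417 and 1418 counts in siRNA libraries, against 1330 and 1331 in control libraries (log2 fold change -0.0013, edgeR adjusted p = 0.983), and it was called in none of the alternatives, whose values ran from -0.015 to 0.098. The number of higher genes in this list was 5 to 7 with upper-quartile factors, total counts alone or limma on RPKM. RBL1 is listed in 2 rows of the table and was left out.

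Of 4 tested inhibitor genes outside the set, 1 rose and 1 fell, with a median of 0.08, near the 25.5% higher and 28.8% lower among all genes tested. CDKN2B, the gene of the CDK4 and CDK6 inhibitor p15, rose to 287 and 272 counts in siRNA libraries, against 183 and 202 in control libraries (log2 fold change 0.45, edgeR adjusted p = 0.00139). This call was lost without Control replicate 1 (adjusted p = 0.0577) and without siCEBPG replicate 1 (adjusted p = 0.0522). CDKN2A, the gene of p16 and ARF, fell by 0.18 on the log2 scale (edgeR adjusted p = 0.00442), but 6 of 10 alternatives did not call it, namely limma on RPKM, upper-quartile factors, total counts alone and the fits without Control replicate 2, siCEBPG replicate 1 or siCEBPG replicate 2. Its adjusted p ranged over the alternatives between 0.000469 and 0.215.

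Of 5 genes for CDK activation and folding, 3 fell and 0 rose at an edgeR adjusted p under 0.05, with a median of -0.14, against 28.8% lower and 25.5% higher among all genes tested. CDC25A, the phosphatase that removes inhibitory phosphates from CDK2, fell to 532 and 540 counts in siRNA libraries, against 1026 and 1006 in control libraries (log2 fold change -1.02, edgeR adjusted p = 1.49e-09). CCNH, the cyclin of the CDK-activating kinase, fell by 0.49 on the log2 scale. The other was the kinase chaperone gene CDC37, named after its values were seen, with 437 ± 20 CPM in siRNA cells and 468 ± 5.3 CPM in control cells (SD, n = 2 each; log2 fold change -0.096, edgeR adjusted p = 0.0462). CDC37 was called in the replicate block and without siCEBPG replicate 2, but not in the other 8 alternatives, among them the fits without Control replicate 1 (adjusted p = 0.198), Control replicate 2 (0.279) and siCEBPG replicate 1 (0.33), and with total counts alone its value was 0.0027.

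Among 17 genes of ubiquitin ligases and cofactors that turn over G1 cyclins and inhibitors, 6 rose and 4 fell, with a median of 0.01, near the 25.5% higher and 28.8% lower of all genes tested. SKP2, the F-box protein that targets p27, fell to 94.7 ± 6.4 CPM in siRNA cells, against 160 ± 4.0 CPM in control cells (SD, n = 2 each; log2 fold change -0.75, edgeR adjusted p = 8.45e-09), and DTL fell by 0.37. RNF123, a ligase subunit that also acts on p27, rose by a log2 fold change of 0.43 (edgeR adjusted p = 3.31e-05). FBXW7, which targets cyclin E, rose by 0.35 (edgeR adjusted p = 0.0027), lost without Control replicate 2 (adjusted p = 0.0952), siCEBPG replicate 1 (0.0887) or siCEBPG replicate 2 (0.0504). The number of higher genes in this list was 2 without Control replicate 1 or without Control replicate 2, 1 without siCEBPG replicate 1, 3 without siCEBPG replicate 2 and 3 in DESeq2.

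Of 16 tested factors known to act on the promoters of CCND1, CDKN1A or CDKN1B, 6 rose and 7 fell, with a median of 0.09, against 25.5% higher and 28.8% lower among all genes tested. MYC fell to 207 and 198 counts in siRNA libraries, against 405 and 428 in control libraries (log2 fold change -1.13, edgeR adjusted p = 3.94e-08). JUN, an AP-1 subunit, fell by 0.81 on the log2 scale. FOXO4, a forkhead factor restrained by AKT, rose to 25.9 ± 1.8 CPM in siRNA cells, against 12.7 ± 0.88 CPM in control cells (SD, n = 2 each; log2 fold change 1.03, edgeR adjusted p = 2.83e-07), and STAT3 rose by 0.70.

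Of 15 E2F target genes of S-phase entry, 9 fell and 3 rose, with a median of -0.20, against 28.8% lower and 25.5% higher among all genes tested. MCM7, a subunit of the replicative helicase, fell to 256 ± 4.5 CPM in siRNA cells, against 409 ± 3.4 CPM in control cells (SD, n = 2 each; log2 fold change -0.68, edgeR adjusted p = 7.35e-10). TYMS, thymidylate synthase, fell by 0.57 on the log2 scale. MCM3, another helicase subunit, rose by a log2 fold change of 0.25 (edgeR adjusted p = 2.39e-05).

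**Figure D4:**
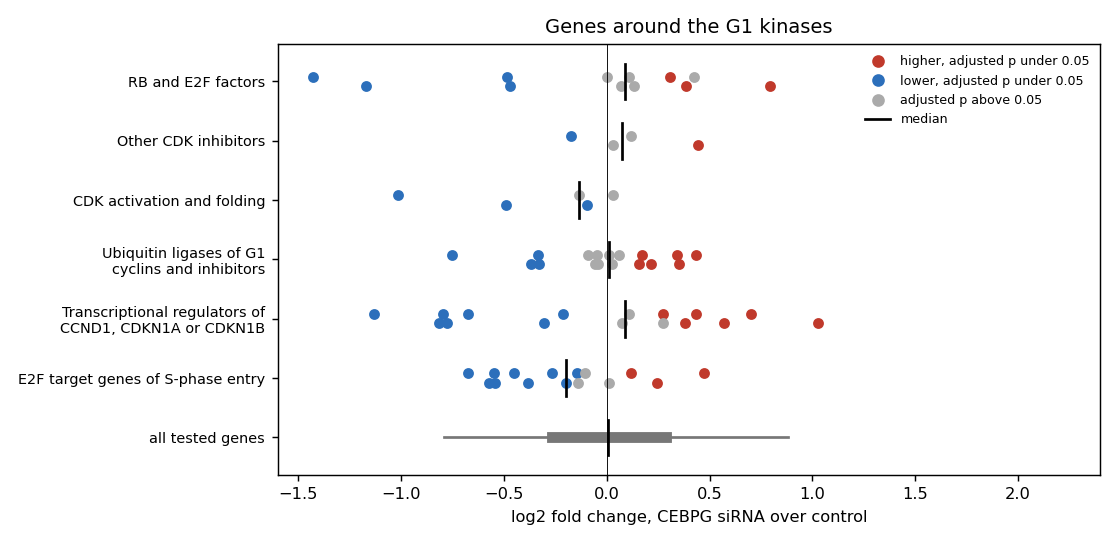
Log2 fold change, CEBPG siRNA over control, of each tested gene in 6 lists around the G1 kinases (red, higher; blue, lower; grey, adjusted p above 0.05), with a line at each median. The bar at the foot spans the 5th to 95th percentile of all tested genes (-0.79 to 0.88) and its thick part the 25th to 75th, and the lists spread to both sides, with TFDP1 at -1.43 and FOXO4 at 1.03 at their ends.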

How the data were processed

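RNA was sequenced from 2 CEBPG siRNA and 2 negative control libraries of KYSE150 cells, grouped by sample title. The submitters' processing notes name hg19 as build and, as tools, RSEM 1.2.12, Bowtie2 2.2.5, HISAT2 2.0.4 and DESeq 3.4, with no role for each, so counts may be rounded estimates. The sources used here state neither annotation nor whether strand was used. The deposited table gives per gene and library a read count, which was the input of the tests, and, per the file headers, an RPKM by the authors, used for levels between genes. The gene lengths behind these RPKM are not given, so orders, shares and sums between genes depend on them. Summed over libraries, no listed gene has under 10 counts. The authors also deposited, per the file headers, a signal column (mean normalized count), a log2 fold change with its standard error, a score (Wald statistic) and p-values with adjusted p-values.

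Counts were fitted with edgeR 4.0.16 in R 4.3.3 (TMM factors, filterByExpr with a minimum count of 10, two-sided quasi-likelihood F test, group as the only term), and p-values were adjusted by Benjamini-Hochberg over 14207 genes, with 0.05 as threshold. CPM are on the TMM-corrected library size, except for marker sums, which use total counts. The fit was tested on simulated data. Alternatives were DESeq2 1.42.0, upper-quartile factors, total counts alone, no filter, limma 3.58.1 on log2(RPKM + 1), the replicate number as a block and each library left out.

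The members and lists were chosen with earlier results of these data known. Named genes were the 10 members, CEBPG, up to 2 called falls and 2 called rises with the largest change per list at a mean of at least 5 CPM, and the 3 nearest profiles to CCND1; others are said to be named after their values were seen, and a gene that the rule names is not reported here. Gene positions and transcripts are from GENCODE 29 (GRCh38), promoter windows from RefSeq (GRCh38.p14). Total counts of 15432762 to 15536501 set the precision, which is lowest for CCNE1 and CCNE2.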

Additional observations from a re-analysis of the deposited data

How the results depend on the processing

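Each of the 8 falls and the rise of CDK6 kept its direction and its side of the threshold in 10 of 10 alternatives. The falls of CCND2 and CCND3 were under 2-fold with upper-quartile factors, total counts alone and limma on RPKM. CCNE1 passed the threshold in limma on log2(RPKM + 1), with a log2 fold change of 0.22 (adjusted p = 0.0374), so that 2 of the genes were higher there. Over all genes, DESeq2 called 2210 higher and 3216 lower. With 1 library left out, 1737 to 2345 genes were higher and 2572 to 3049 lower, and the lone library of a group was then assumed to vary like the pair of the other group. With total counts alone, the all-gene median moved to 0.10 in log2 units, and this setting called 4939 higher and 3079 lower, against 3617 and 4098 with TMM, and upper-quartile factors called 4525 and 3396. With 1 library left out, the siRNA minus control difference was -11.4 to -9.96 percentage points for the share of CCND1 among D-type cyclins, 13.2 to 16.1 for that of CDK6 with CDK4, and 1.37 to 1.52 for the log2 ratio of CDKN1A to CCND1. With 2 libraries a group such a shift is always under their SD, so these ranges show nothing about stability. Values that changed sign were those of CDC37, at 0.0027 with total counts alone and 0.0016 in limma on RPKM, and of RB1, which was not called, at 0.068 with upper-quartile factors, 0.098 with total counts alone, 0.091 in limma on RPKM and -0.0049 to 0.0023 with 1 library left out. The replicate numbers come from titles alone. Deviations of same-numbered libraries had a correlation of 0.0489 over 14207 genes in 2 pairs, and the replicate block called 3811 higher and 4319 lower, with 8 and 1 of the 10 genes lower and higher. For the low counts of CCNE1 and CCNE2, depth limits what can be told.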
